A study of Mus musculus with 26 samples.

Results

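Sp7, Dlx5, Msx2 and Twist1 are 4 transcription factors of the osteoblast lineage, and their transcripts were followed on 26 arrays of mouse osteosarcoma and cultured osteoblasts. Every probe set that the annotation assigns to one of these genes was taken, which gave 5 probe sets among the 45101 on the array. All 4 genes were among the 12887 genes tested. A probe set is a group of short oligonucleotides on the array that together measure 1 transcript. Levels are given as log2 of the deposited intensity, so that a difference of 1 is a doubling, and are not compared between genes.

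Osteosarcoma is a malignant bone tumour whose cells make bone matrix. The arrays hold 3 cultures of osteoblasts differentiated in vitro and labelled WT (wild type) in the study's design, 15 primary osteosarcomas, 4 osteosarcoma cell lines (numbers 176, 179, 182 and 213) and 4 secondary tumours. Among the secondary tumours, numbers 29, 64 and 94 were transplants per the labels. Number 66 was tissue of a tumour derived from a line, while its title says cell line. The titles of the secondary samples carry the prefix OPflR, which the labels do not spell out. The labels otherwise give no genotype, strain, age, host or treatment for the tumour groups, and do not say whether the 3 osteoblast cultures came from separate animals. The p-values against osteoblasts count the cultures as independent, which the labels do not show. They draw on a spread pooled over all 4 groups. If the cultures share an animal, no spread between osteoblast animals is measured. Whether the tumours carry a transgene with sequence of one of these genes is not known here.

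Sp7, also called Osterix, is a zinc finger factor that precursor cells need to become osteoblasts. Dlx5 and Msx2 are homeodomain factors that act in the response to bone morphogenetic proteins (BMPs), the secreted signals that direct cells towards bone. Dlx5 favours osteoblast differentiation, and Msx2 marks proliferating precursors and is needed for normal skull growth. Twist1 is a basic helix-loop-helix factor of mesenchymal cells that restrains early osteoblast differentiation by holding back Runx2. Osteoblasts themselves end in matrix production, through collagen I, alkaline phosphatase (Alpl) and bone sialoprotein (Ibsp).

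Promoter sequence from RefSeq (build GRCm38.p6) was matched for Msx2 and Twist1. The promoter reference used here held no entry for Sp7 or Dlx5, so none is shown for them. Each run covers 250 bases before the transcript start and 50 after it, 5′ to 3′ on the gene's strand, with the homeodomain core TAATTA and the GC box GGGCGG (searched on both strands) in capitals. The Msx2 promoter lies at chr13:53472731-53473030 on the minus strand, and the Twist1 promoter at chr12:33957421-33957720 on the plus strand.
Msx2: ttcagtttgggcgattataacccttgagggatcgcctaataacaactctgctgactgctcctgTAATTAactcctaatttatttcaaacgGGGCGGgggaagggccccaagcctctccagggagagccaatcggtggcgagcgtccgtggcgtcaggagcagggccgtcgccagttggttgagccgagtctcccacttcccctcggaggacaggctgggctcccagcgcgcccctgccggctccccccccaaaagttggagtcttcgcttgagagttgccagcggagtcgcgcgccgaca
Twist1: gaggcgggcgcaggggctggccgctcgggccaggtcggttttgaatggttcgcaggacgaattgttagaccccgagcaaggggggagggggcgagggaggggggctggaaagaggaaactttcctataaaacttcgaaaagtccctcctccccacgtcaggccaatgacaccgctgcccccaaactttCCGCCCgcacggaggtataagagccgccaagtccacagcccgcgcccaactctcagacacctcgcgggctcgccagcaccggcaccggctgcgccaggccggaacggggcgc
The Msx2 window holds 1 TAATTA, the core that many homeodomain proteins recognise, at position 64, and 5.29% of the 32851 promoters of the same length hold at least 1. In the Twist1 window there is none. Both windows hold 1 GC box, as do 35.7% of all promoters. An E-box (CANNTG), the core that helix-loop-helix factors recognise, is present once in the Msx2 window and absent from the Twist1 window, against 72.3% of promoters with a match. These are letter matches, and no measurement here bears on binding.

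Sp7 was read by probe set 1418425_at (gene at chr15:102356603-102367035), Dlx5 by 1449863_a_at (chr6:6877801-6882068) and Twist1 by 1418733_at (chr12:33957671-33959831), each above the filter on low values on all 26 arrays. Msx2 (chr13:53466881-53472780) has a pair of probe sets. Probe set 1449559_at was above the filter intensity of 52.6 (5.72 on the log2 scale) on 13 arrays and at the floor of 3.64 on 1. Those 13 arrays were 8 primary tumours, the 4 secondary tumours and cell line 176, so Msx2 was tested because it is high in tumours. The other Msx2 probe set, 1438351_at, was above the filter on 1 array and at the floor on 14, and is described by its values alone.

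The arrays differ in ways that go with the groups. Ratios of bacterial control transcripts added at hybridisation part them into 3 sets, which the labels do not name as batches: the 3 osteoblast cultures form set A, 7 primary and all 4 secondary tumours form set B, and 8 primary tumours and all 4 cell lines form set C. In every comparison with osteoblasts, control set and group cannot be told apart. The ratio of the Gapdh 5′ to 3′ control probe sets, a sign of RNA quality that falls when RNA is degraded, was 0.916 to 0.967 in osteoblasts, 0.656 to 1.03 in primary tumours, 0.839 to 1.08 in secondary tumours and 1.04 to 1.08 in cell lines. Array medians were 44.4 to 48.2 in cell lines, 46.4 to 48.2 in osteoblasts and 50.4 to 58.8 in primary tumours. The 3 cultures carried osteoblast matrix genes at a mean log2 level of 10.82 to 10.85, and also adipocyte markers at 11.02 to 11.09, against 5.14 to 7.26 in primary tumours. Primary tumour 330 and cell line 176 stood apart from their groups in several of the results below, which are given with and without them.

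The levels on the individual arrays show where each factor was high. Sp7 measured 8.37, 8.46 and 8.75 in the 3 osteoblast cultures. In the 15 primary tumours it ran from 6.86 to 10.99 with a median of 10.47. The 4 secondary tumours lay at 10.73 (number 29), 11.05 (64), 10.36 (66) and 10.21 (94). Thus 14 of 15 primary tumours and all 4 secondary tumours exceeded every osteoblast culture, and tumour 330, at 6.86, lay below them all. Among cell lines Sp7 was 10.52 in line 176, 8.42 in line 182, 6.97 in line 179 and 6.21 in line 213, so line 176 lay within the tumour range and 2 lines lay below the osteoblasts.

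Dlx5 stayed within a narrow range in the cultures, at 7.80, 7.64 and 7.77. Primary tumours ran from 7.83 to 9.80 with a median of 8.85. Secondary tumours measured 9.72, 9.42, 9.42 and 9.16 (numbers 29, 64, 66 and 94). All 15 primary and all 4 secondary tumours were above the 3 cultures, although tumour 330 cleared the highest culture narrowly. Of all genes tested, 8.95% were likewise higher in all 15 primary tumours than in every culture, and 24.1% in all 4 secondary tumours. Cell lines measured 8.44 (line 176), 7.34 (179), 8.05 (182) and 7.59 (213), with 2 above and 2 below the cultures.

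Msx2, by 1449559_at, was low in the cultures at 4.38, 5.04 and 4.30. Primary tumours ran from the floor of 3.64 to 8.74 with a median of 7.05. Secondary tumours lay at 8.80, 6.65, 8.01 and 7.56, and cell lines at 6.36, 5.38, 4.61 and 4.50, in the same orders as above. The secondary tumours overlapped with neither the cultures nor the cell lines, while primary tumours spanned almost the whole range. Of all genes, 19.8% were lower in all 4 lines than in every secondary tumour. Msx2 had the widest spread of the 4 factors among primary tumours, with an SD of 1.74 that exceeded the SD of 99.3% of all genes tested.

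Twist1 measured 9.20, 9.33 and 9.04 in the cultures. Primary tumours ran from 8.33 to 11.70 with a median of 10.86, and 14 of 15 were above all cultures. The exception was tumour 183, at 8.33, whose Sp7 (10.25) and Dlx5 (8.70) lay within the range of the other tumours. Secondary tumours measured 9.81, 10.88, 10.50 and 10.56. Line 176 again stood highest among the lines, at 10.90, with lines 179, 182 and 213 at 8.48, 9.01 and 8.93, all below the cultures.

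**Figure D1:**
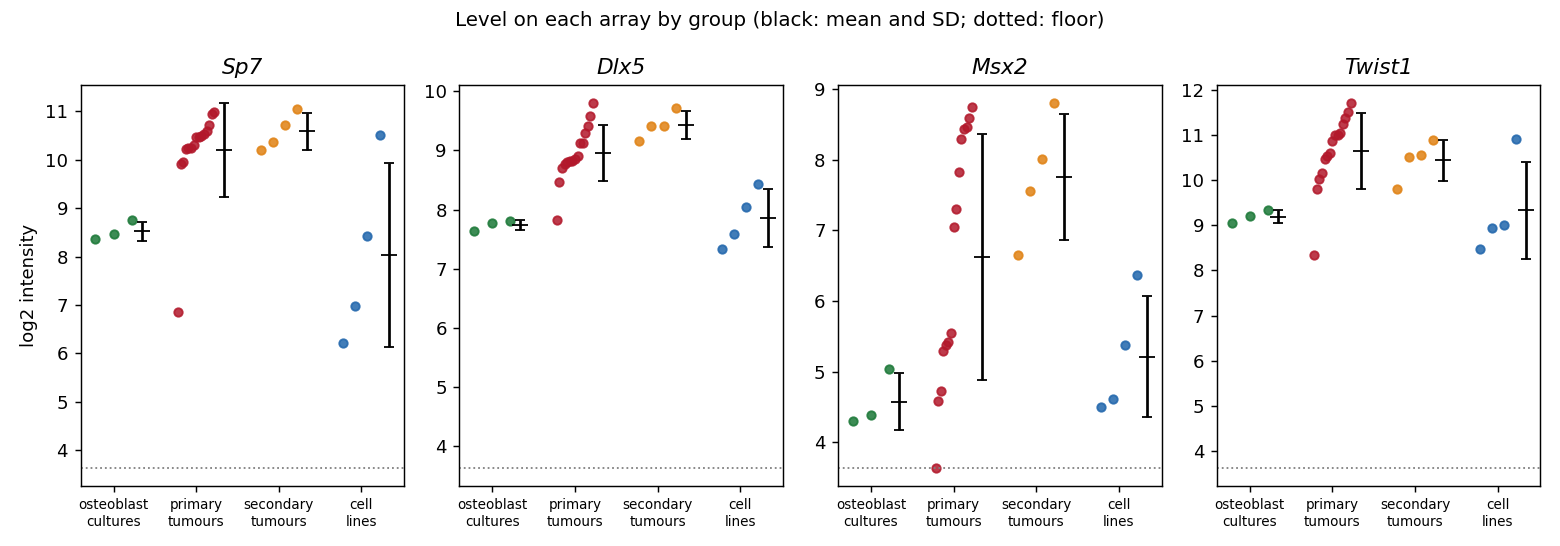
Log2 intensity of the 4 factors on each of 26 arrays, by group, with the group mean and SD in black and the floor of 3.64 as a dotted line. Secondary tumours lie above the osteoblast cultures for all 4 genes, as do 24.1% of all genes tested, and line 176 is the highest cell line for each.

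The first comparison asks how primary osteosarcomas differ from cultured osteoblasts. Sp7, Dlx5 and Twist1 were higher in the tumours, by about 2 to 3 times, and Msx2 was higher on average without passing the threshold. Called here means an adjusted p below 0.05 in limma and a fold of at least 2. Sp7 averaged 10.20 ± 0.97 (SD, n = 15) against 8.53 ± 0.20 (n = 3), a log2 difference of 1.67 ± 0.630 (SE) with an adjusted p of 0.0348. Dlx5 averaged 8.96 ± 0.48 against 7.74 ± 0.08, a difference of 1.22 ± 0.264 (adjusted p 0.000639). For Twist1 the means were 10.64 ± 0.84 and 9.19 ± 0.14, and the difference was 1.45 ± 0.479 (adjusted p 0.0168). Msx2, at 6.62 ± 1.74 against 4.58 ± 0.41, differed by 2.04 with a 95% interval of 0.24 to 3.84 and an adjusted p of 0.0614. Among all genes tested 6.58% were called higher in primary tumours and 11.9% lower, and the 4 members had a median difference of 1.56 against -0.07 over all genes.

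These calls rested on few control arrays and on part of the tumours. Using the tumours of control set B alone the differences were 1.93 for Sp7, 1.48 for Dlx5, 2.74 for Msx2 (called, adjusted p 0.0037) and 1.78 for Twist1. With those of set C alone they were 1.44 for Sp7 (adjusted p 0.14), 0.99 for Dlx5 (adjusted p 0.00467, fold under 2), 1.43 for Msx2 and 1.17 for Twist1 (adjusted p 0.0894), none of them called. Leaving out osteoblast culture 1, 2 or 3 each ended the Sp7 call (differences 1.59 to 1.78), and the Twist1 call ended without culture 1 (1.46) or culture 3 (1.38). With the Gapdh 5′ to 3′ ratio as a covariate Sp7 gave 1.55 (adjusted p 0.0527), and with no filter on low values 1.67 (adjusted p 0.0535), neither of them called. Without tumour 330 Sp7 differed by 1.91 and was called. Msx2 was called when tumour 176 (2.25), 188 (2.18) or 330 (2.19) was left out. The filter had kept Msx2 only through tumours and cell line 176, which favours higher values in tumours.

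Secondary tumours against osteoblasts gave calls for Sp7, Dlx5 and Msx2. Sp7 averaged 10.58 ± 0.38 (n = 4), higher by 2.06 ± 0.761 (adjusted p 0.0376). Dlx5, at 9.43 ± 0.23, was higher by 1.69 ± 0.319 (adjusted p 0.000245). Msx2, at 7.75 ± 0.89, was higher by 3.18 ± 1.05 (adjusted p 0.0212). The filter had kept Msx2 only through tumours, all 4 secondary ones among them, and cell line 176, which favours this direction. Twist1, at 10.44 ± 0.45, differed by 1.25 with an interval of 0.06 to 2.44 and an adjusted p of 0.0942, although the groups did not overlap. Over all genes 7.71% were called higher and 10.8% lower. This comparison uses the same 3 osteoblast arrays as the one before it.

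Secondary tumours share numbers with primary tumours, and a fit with the tumour number as a random block gave 1.94 for Sp7 (adjusted p 0.0536) and 2.70 for Msx2 (adjusted p 0.0535), which ended both calls. Dlx5 stayed called, at 1.55. Without any 1 culture the Sp7 difference lay between 1.98 and 2.17 and was not called, and it also lost its call without secondary tumour 29 (2.01), 64 (1.90) or 66 (2.13). Msx2 lost its call without culture 1 (3.08), culture 3 (3.04) or secondary tumour 29 (2.83). Twist1 was called, at 1.25, when primary tumour 183 was left out of the shared estimate of spread.

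In cell lines none of the 4 factors passed the test against osteoblasts. Sp7 averaged 8.03 ± 1.90 (n = 4), a difference of -0.50 with an interval of -2.06 to 1.07 (adjusted p 0.716). Dlx5, at 7.86 ± 0.49, differed by 0.12, with an interval of -0.54 to 0.78. Msx2, at 5.21 ± 0.86, differed by 0.64 (interval -1.53 to 2.81), and Twist1, at 9.33 ± 1.07, by 0.14 (interval -1.05 to 1.33). No member had an unadjusted p below 0.05. The intervals include a doubling in at least 1 direction for Sp7, Msx2 and Twist1. In the background 1.58% of genes were called higher in lines and 6.64% lower. Without line 176 the Sp7 difference was -1.33. Leaving out tumour 330 as well, an alternative chosen after the data were seen, the same difference of -1.33 was called (adjusted p 0.0166).

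Cell lines against primary tumours gave calls for Sp7, Dlx5 and Twist1, all lower in the lines. Sp7 fell by 2.17 on the log2 scale (SE 0.560, adjusted p 0.00392), Dlx5 fell by 1.10 (SE 0.235, adjusted p 0.000776) and Twist1 fell by 1.31 (SE 0.426, adjusted p 0.0179). Msx2 differed by -1.40, with an interval of -3.00 to 0.20 and an adjusted p of 0.159. Of all genes 7.03% were called lower in the lines and 4.72% higher. Within control set C, which holds all 4 lines and 8 of the primary tumours, the differences were -1.94 for Sp7 (called, adjusted p 0.0422), -0.87 for Dlx5 (adjusted p 0.00874, fold under 2), -0.79 for Msx2 and -1.03 for Twist1 (adjusted p 0.119). Against the tumours of set B they were -2.43, -1.36, -2.10 and -1.64 in the same order, all called. The Dlx5 call was lost without line 179 (-0.93), and the Twist1 call without line 179 (-1.03), 182 (-1.21) or 213 (-1.18). With the Gapdh ratio as a covariate, whose range in the lines lies above that in primary tumours, Dlx5 gave -0.82 (adjusted p 0.0214, fold under 2) and Twist1 -0.89 (adjusted p 0.181), no longer called, and Sp7 -1.81 (adjusted p 0.044), still called. Without line 176, Sp7 differed by -3.00.

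Against secondary tumours the cell lines were lower in Sp7 by 2.55 and in Dlx5 by 1.57, from differences of -2.55 ± 0.704 (adjusted p 0.00841) and -1.57 ± 0.295 (adjusted p 0.000412). Msx2 differed by -2.54 (adjusted p 0.0505) and Twist1 by -1.11 (adjusted p 0.116), neither of them called. Without line 176 both were called, at -2.92 and -1.63. Of the fits that each left out a single array, that one included, 10 called Msx2 and 2 called Twist1. Among them were fits without a primary tumour, such as 119 for Msx2 (-2.54) and 183 for Twist1 (-1.11). Msx2 had passed the filter only through tumours and line 176, which favours lower values in the lines. In the background 8.40% of genes were called lower in lines and 4.77% higher. The lines and the secondary tumours lie in different control sets, and with the control set as a covariate Sp7 gave -2.06 (adjusted p 0.159) and Dlx5 -1.09 (adjusted p 0.0506), no longer called.

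Between secondary and primary tumours no member passed the test. The differences were 0.39 for Sp7 (interval -0.77 to 1.54), 0.47 for Dlx5 (-0.01 to 0.96), 1.14 for Msx2 (-0.46 to 2.74) and -0.20 for Twist1 (-1.08 to 0.68). None of the 4 had an unadjusted p below 0.05 either. Over all 12887 genes limma called 1, Ang (angiogenin), which is 0.00776% higher and 0.00% lower, while 769 were higher and 452 lower at an unadjusted p below 0.05. For all 4 factors the higher pair of groups was the primary and secondary tumours, the lower pair the osteoblasts and cell lines, and neither pair was separated by its test.

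**Figure D2:**
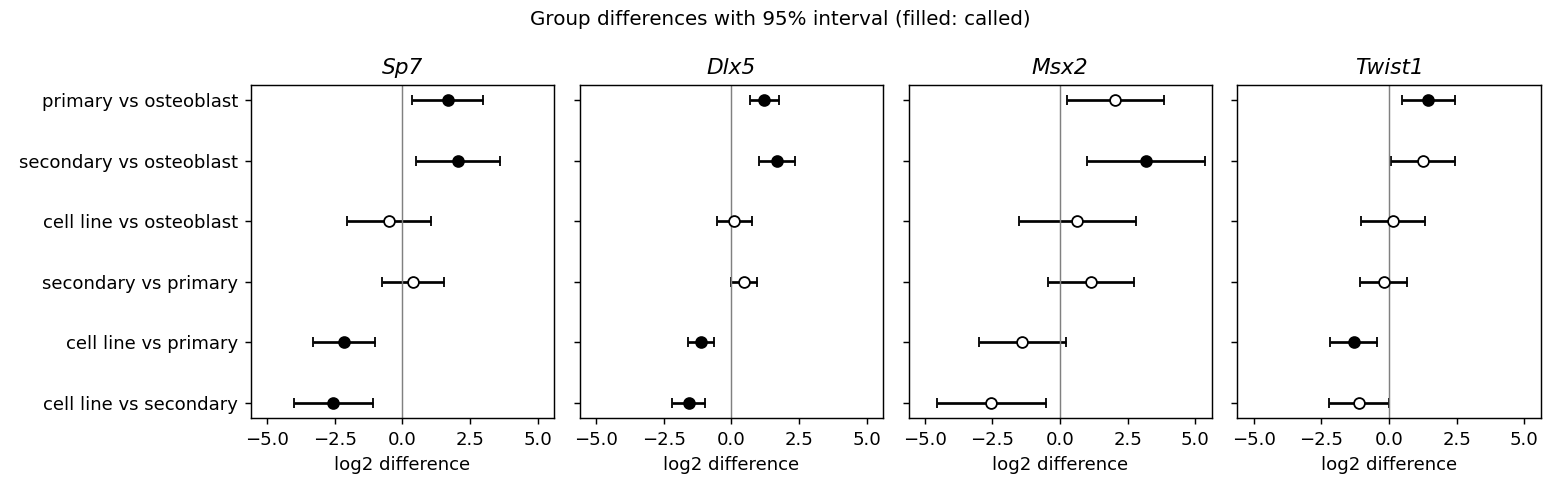
Log2 difference with its 95% interval for the 4 factors in 6 group comparisons, filled where called. Sp7 and Dlx5 are called in the same 4 comparisons, and no interval for cell lines against osteoblasts clears 0.

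Tumours are mixtures, and in bulk RNA fewer cells of a type and less RNA per cell cannot be told apart. Macrophage markers moved with the tumour groups: all 15 of 15 rose in primary tumours against osteoblasts, and the list's mean log2 level was 5.14 to 5.24 in cultures, 7.96 to 10.32 in primary tumours, 7.97 to 9.63 in secondary tumours and 4.97 to 5.17 in lines. C1qa, a complement subunit made by macrophages, was at the floor in all 3 cultures. Endothelial markers moved likewise, with 8 of 12 higher and 1 lower in primary tumours, from 6.40 to 6.84 in cultures to 7.27 to 8.23 in primary tumours. The part of these cells in the results was not tested. Skeletal muscle markers ran from 4.36 to 10.16 in primary tumours, from 4.28 to 4.61 in secondary tumours, from 4.53 to 4.68 in the cultures and from 4.43 to 9.03 in lines, and their part was not tested either. All 7 measured adipocyte markers of 10 listed fell in each of the 3 comparisons against osteoblasts, and their part in those results was not tested. Of cartilage markers 5 of 10 measured fell in primary tumours against osteoblasts and none rose, and of osteoclast markers 1 of 8 rose. Over all genes 6.58% were called higher and 11.9% lower in that comparison. The shares called lower against osteoblasts were 10.8% in secondary tumours and 6.64% in lines.

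Several secondary tumours and lines carry the number of a primary tumour. By deviations of each gene from its group mean, over all genes, each of the 4 secondary tumours correlated best with the primary tumour of its own number. Sp7 moved little in these pairs: secondary minus primary was 0.14 for number 29, 0.10 for 64, -0.14 for 66 and 0.24 for 94. Dlx5 likewise gave -0.08, 0.13, -0.16 and 0.35. Msx2 gave 0.33, -1.18, -0.44 and 0.51, with no shared direction. Twist1 was lower in the secondary tumour in 4 of 4 pairs, by -0.35, -0.62, -0.50 and -0.67, and the fit with the number as a fixed block gave -0.54 with an adjusted p of 0.312, which does not pass. The share of all genes lower in all 4 pairs was not counted. In the fixed block fit Msx2 gave -0.19 where the unmatched difference was 1.14. Both members of each pair lie in control set B.

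For the 3 lines with a same-numbered primary tumour the data do not show the pairing. By the same deviations from group means, the correlations with that tumour were 0.035, 0.081 and 0.039, and other primary tumours ranked higher. These are not correlations of the levels themselves. The differences of the lines from the same-numbered tumour are given as values, and they were not alike. Sp7 in line 179 was lower than in its tumour by a log2 difference of -4.02 (6.97 against 10.99), and in line 182 by -1.50, whereas line 176 differed by 0.28. Twist1 moved in the same directions, by -2.54, -2.69 and 0.31 in lines 179, 182 and 176. Dlx5 was lower in all 3 lines, at -0.98 (line 176), -1.57 (179) and -0.80 (182). Msx2 differed by -3.36 in line 179 and -0.81 in line 182. In line 176 it was higher by at least 2.73, since tumour 176 was at the floor. The pairs all lie within control set C. Over these 3 pairs no member passed, with adjusted p of 0.248 for Sp7, 0.0662 for Dlx5 and 0.194 for Twist1 in the fixed block fit.

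**Figure D3:**
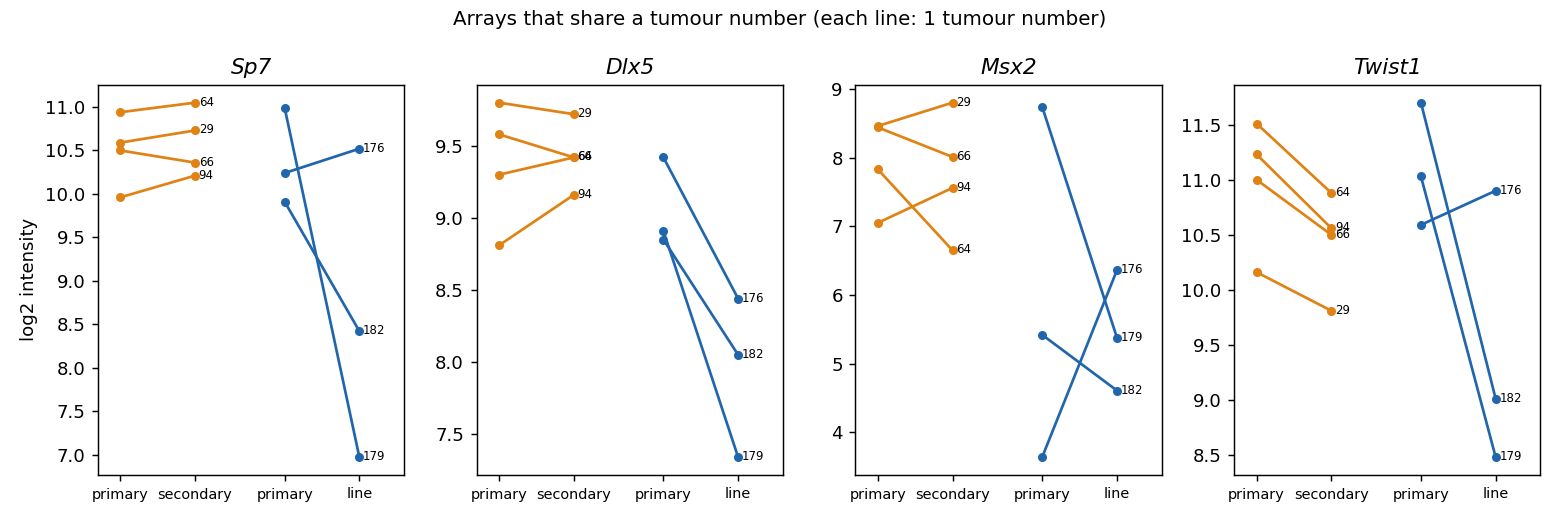
Log2 intensity in primary tumours and in the secondary tumours (orange) or cell lines (blue) of the same number. Twist1 falls along all 4 orange lines by 0.35 to 0.67, which did not pass the matched test. Sp7 and Twist1 are low in lines 179 and 182 but not in line 176.

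Single tumours differed from one another in which factors were low. Tumour 330 had the lowest Sp7 and Dlx5 of the 15 primary tumours, at 6.86 and 7.83, with Msx2 at 4.58 and Twist1 at 9.79. It was also lowest in the mean of the measured osteoblast matrix genes, 8.77 against 10.30 to 11.37 in the other 14, and of the osteoblast regulators, 8.03 against 8.36 to 9.36. Its macrophage markers (9.22) and endothelial markers (7.32) lay within the range of the other tumours, and its muscle markers were at 4.74. Tumour 183 was low in Twist1 alone of the 3 factors above the filter on every array. Tumour 176, with Msx2 at the floor, had Sp7 at 10.24, Dlx5 at 9.42 and Twist1 at 10.59. Without tumour 330 the SD of Sp7 over primary tumours dropped from 0.97 to 0.32, a spread exceeding that of 40.8% of genes in place of 94.4%, while the SD of Twist1 stayed at 0.84.

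Msx2 levels in primary tumours fell into 2 ranges with a gap of 1.51 between them. The lower 7 tumours (176, 330, 188, 87, 183, 182 and 12) lay between 3.64 and 5.54, from below the osteoblast cultures, which measured 4.30 to 5.04, to just above them. The upper 8 (94, 353, 64, 331, 66, 29, 119 and 179) lay between 7.05 and 8.74. The second Msx2 probe set, before flooring, ran from 0.65 to 3.42 in the lower 7 and from 3.60 to 5.80 in the upper 8, so its values did not overlap between the same tumours, although most of them lay at or below the floor and no wide gap parted them. Across the 15 tumours the probe sets had a Pearson r of 0.88 and a Spearman rho of 0.89, as a description of measures that share the arrays and the transcript. Control sets B and C occurred in both ranges, with 2 and 5 tumours in the lower and 5 and 3 in the upper range. The 4 secondary tumours all came from numbers of the upper range, and themselves lay at 6.65 to 8.80.

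**Figure D4:**
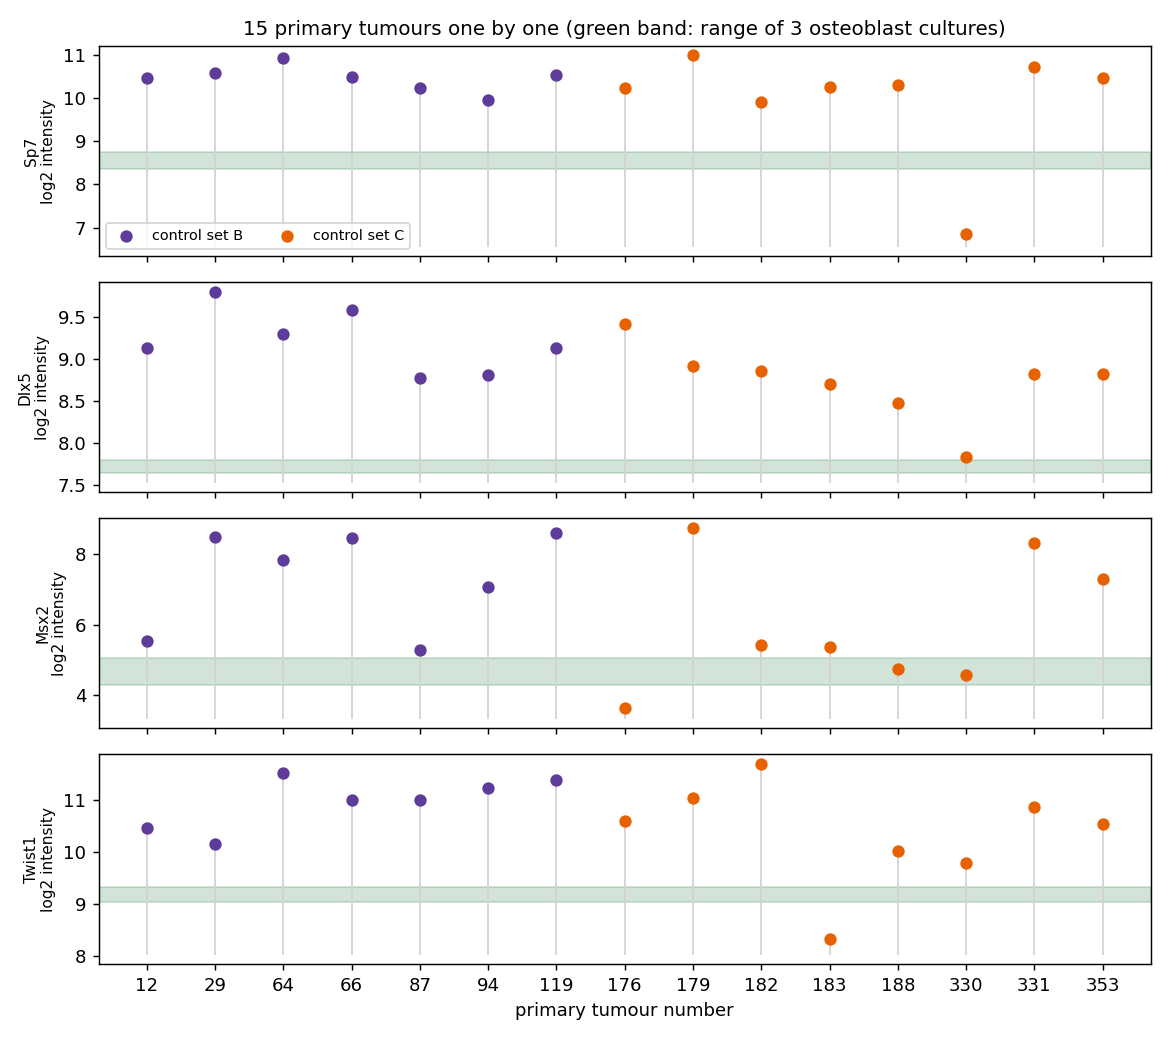
Log2 intensity of the 4 factors in each of 15 primary tumours, coloured by control set, with the range of the 3 osteoblast cultures as a green band. Tumour 330 is low in Sp7 and Dlx5, tumour 183 in Twist1, and Msx2 leaves 7 tumours between 3.64 and 5.54 and 8 between 7.05 and 8.74.

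Whether the factors rose and fell together across primary tumours was asked for 6 pairs, with two-sided permutation p-values adjusted over the 6. Sp7 and Dlx5 had a Pearson r of 0.70 (permutation p 0.00921, adjusted p 0.0553) and a Spearman rho of 0.52 (permutation p 0.0484, adjusted p 0.103), and r was 0.62 in control set B and 0.78 in set C. Without tumours 182 and 330 r was 0.28, and without 330 alone 0.31, so the value over all 15 rests on tumour 330. The 7 tumours of set B do not include it. Sp7 and Twist1 gave r = 0.30 (permutation p 0.195, adjusted p 0.234) and rho = 0.18 (permutation p 0.524, adjusted p 0.524). Their r was 0.06 in set B, 0.25 in set C and 0.32 without tumours 182 and 330. Dlx5 and Twist1 gave r = 0.31 (permutation p 0.252, adjusted p 0.252) and rho = 0.32 (permutation p 0.243, adjusted p 0.292), with -0.48 in set B, 0.36 in set C and 0.36 without tumours 29 and 330.

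Sp7 and Msx2 were the pair that passed by rank, with a Spearman rho of 0.80 over the 15 tumours (permutation p 0.00054, adjusted p 0.00324). Their rho was 0.64 in set B, 0.79 in set C and 0.78 without tumour 330. Pearson r was 0.50 (permutation p 0.0192, adjusted p 0.0576), 0.44 in set B, 0.49 in set C, and 0.64 without tumours 182 and 330. Because Msx2 fell into separate ranges, values over all 15 tumours span the gap between them, and the pairs were also taken within each range. Sp7 and Msx2 then had r = 0.22 (exact permutation p 0.458) in the lower 7 tumours and r = 0.63 (exact permutation p 0.132) in the upper 8. Neither r passed. Their rho was 0.36 in the lower and 0.60 in the upper range, and rho was not tested within the ranges. The ranges were seen in these data.

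Dlx5 and Msx2 gave r = 0.46 (permutation p 0.0854, adjusted p 0.171) and rho = 0.51 (permutation p 0.0513, adjusted p 0.103) over all 15 tumours, 0.68 in set B, 0.12 in set C, and 0.23 without tumours 29 and 330. Within the lower and upper range r was -0.11 and 0.44 (exact permutation p 0.865 and 0.273). For Msx2 and Twist1 r was 0.39 (permutation p 0.15, adjusted p 0.225) and rho 0.41 (permutation p 0.131, adjusted p 0.196), with 0.16 in set B, 0.33 in set C, and 0.36 without tumours 330 and 176. Within the ranges it was 0.01 and -0.07 (exact permutation p 0.894 and 0.899).

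The gene whose pattern was most like Sp7 over the 26 arrays was Alpl, the phosphatase that osteoblasts use in mineralisation, with r = 0.97. Alpl measured 9.82 to 10.16 in the cultures, 12.04 to 12.65 in secondary tumours, and 11.16, 8.91, 10.40 and 7.09 in lines 176, 179, 182 and 213, which is the order of Sp7 among the lines. In primary tumours its median was 12.40, with tumour 330 at 7.42 and the next lowest at 11.80. Over primary tumours r was 0.97, and 0.74 without tumour 330. The next most alike were Epha2, an ephrin receptor (r = 0.90), Elmo1 and 9130024F11Rik (both 0.89) and Bambi, a decoy receptor for BMP and TGF-beta ligands (0.88). Without tumour 330 the r over primary tumours was 0.25 for Epha2, 0.07 for Elmo1, 0.55 for 9130024F11Rik and 0.67 for Bambi, so the likeness of Epha2 and Elmo1 within primary tumours came from that tumour. Over primary tumours Alpl was followed by Id3, an inhibitor of helix-loop-helix factors, at 0.94 and Dbndd2 at 0.93, with 0.64 and 0.60 without tumour 330. These correlations describe arrays that share groups and control sets, and they carry no p-value.

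Dlx5 was most like Ints6l (r = 0.91), Bambi (0.90), and Grk3, Kif6 and 2610020C07Rik (each 0.89). Bambi measured 8.87 to 9.06 in the cultures, 10.25 to 11.40 in secondary tumours and 7.06 to 8.93 in lines, with a median of 10.48 in primary tumours. Within primary tumours Synm, an intermediate filament protein, led at 0.90, then Kbtbd3 at 0.89 and Card6 at 0.86. Msx2 was most like Foxf2, a forkhead factor of mesenchyme (r = 0.93), Tfap2a, an AP-2 factor of neural crest (0.90), and Igf1r, Maip1 and Lysmd3 (each 0.89). Tfap2a measured 5.31 to 5.63 in the cultures, 7.82 to 8.38 in secondary tumours and 7.64 in line 176 against 4.97 to 6.07 in the other lines. Its primary tumours ran from 5.44 to 8.83. Within primary tumours Wnk2 and Smim13 (each 0.95) and Pou5f2 (0.94) led for Msx2, values that carry the gap between its ranges. Twist1 was most like Ankrd44 (r = 0.87), Rap1gap and Amot (each 0.85), and Ppic and Mertk (each 0.84), and within primary tumours Snx13 and Ppic (each 0.90) and Amot (0.87).

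**Figure D5:**
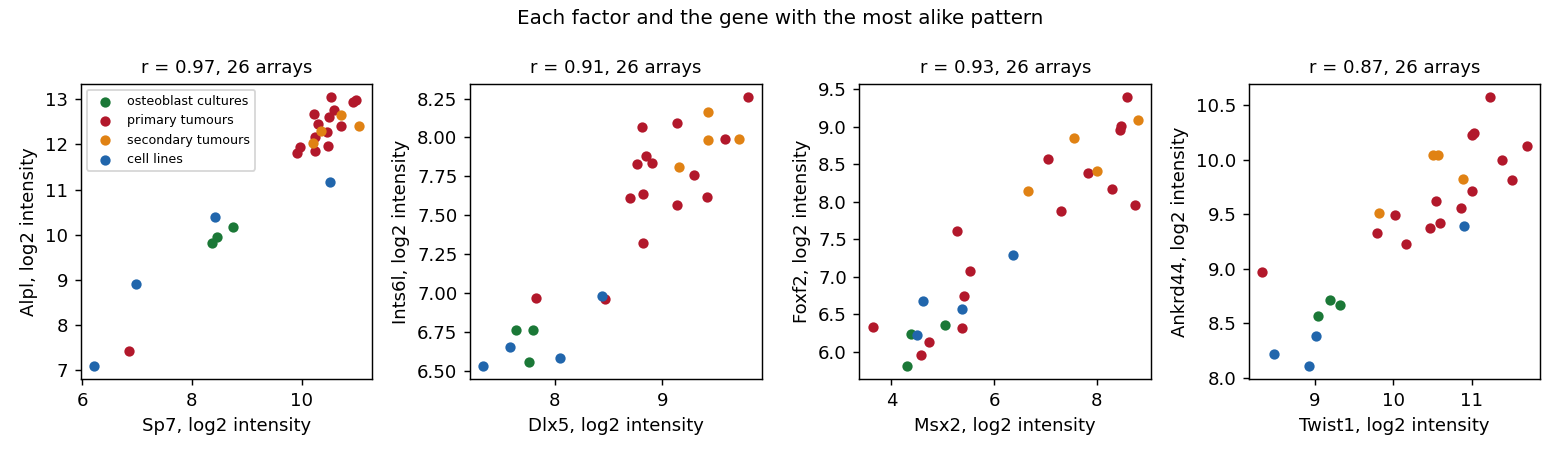
Log2 intensity of each factor against the gene with the most alike pattern, on 26 arrays coloured by group. Sp7 and Alpl have r = 0.97, with tumour 330, the osteoblast cultures and lines 179, 182 and 213 along the lower stretch. Msx2 and Foxf2 have r = 0.93.

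Other regulators of osteoblasts did not move as one. Of 25 listed, 22 were measured. In primary tumours against osteoblasts 3 rose and 4 fell, with a median difference of 0.20 against -0.07 over all genes. Those that rose were Hey1, a Notch target (3.38), Lef1, a partner of beta-catenin (2.09), and Sp3, an Sp family factor (1.19). Those that fell were the mesenchymal factors Foxc2 (-2.01), Snai2 (-1.62) and Prrx1 (-1.46) and the AP-1 subunit Fosl1 (-1.31). In secondary tumours 4 rose, Hey1 (3.76), Lef1 (2.99), Sp3 (1.66) and Alx4 (1.62), and 3 fell. In cell lines against osteoblasts none rose and only Snai2 fell (-1.65). Against primary tumours the lines had 4 lower, Dlx3 (-2.30), Hey1 (-1.98), Lef1 (-1.85) and Sp3 (-1.27), and 1 higher, Foxc2 (1.16). Against secondary tumours 5 of 22 were lower in the lines and none higher, Lef1 (-2.76) and Dlx3 (-2.58) by the most. Between secondary and primary tumours limma called 0 of 22, with 1 at an unadjusted p below 0.05. Beside these counts, 6.58% of all genes were called higher and 11.9% lower in primary tumours against osteoblasts. The shares were 7.71% and 10.8% in secondary tumours and 1.58% and 6.64% in lines. In lines they were 4.72% and 7.03% against primary tumours, and 4.77% and 8.40% against secondary tumours.

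BMP ligands, receptors and inhibitors, the inputs to Dlx5 and Msx2, had 14 of 16 genes measured. Against osteoblasts 3 rose in primary tumours, the ligands Bmp2 (3.27) and Bmp7 (1.06) and Bambi (1.36), and 2 fell, the ligand Bmp4 (-1.57) and the receptor Bmpr1a (-1.21), with a median over the list of -0.29. In secondary tumours Bmp2 (2.98), Bambi (1.96) and Bmp7 (1.61) rose, and Bmp4 (-1.38), Bmpr1a (-1.20) and the antagonist Grem1 (-1.17) fell. In cell lines limma called 0 of 14 against osteoblasts, with 3 at an unadjusted p below 0.05 and a median of -0.56 against -0.10 over all genes. Against primary tumours the lines had 5 lower, among them Bmp2 (-3.90), Bambi (-2.50) and Smad7 (-1.12), an inhibitor of the pathway, and 1 higher, Grem1 (1.14). Against secondary tumours 6 were lower, Bmp2 (-3.61), Bambi (-3.11) and Smad6 (-1.98) by the most, and Grem1 was again higher (1.64). Between secondary and primary tumours limma called 0 of 14, with 2 at an unadjusted p below 0.05. The shares of all genes called higher and lower against osteoblasts were 6.58% and 11.9% in primary and 7.71% and 10.8% in secondary tumours. In lines they were 1.58% and 6.64% against osteoblasts, 4.72% and 7.03% against primary tumours, and 4.77% and 8.40% against secondary tumours.

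Matrix and mineralisation genes, the output of mature osteoblasts, had 15 of 20 measured. In primary tumours Alpl (2.11), Smpd3 (1.73) and the parathyroid hormone receptor Pth1r (1.55) rose against osteoblasts, while Phex, an endopeptidase of late osteoblasts and osteocytes, fell (-3.38, with 6 of 15 tumours at the floor), as did the chaperone Fkbp11 (-1.07). The list's median was 0.00. In secondary tumours Alpl (2.37), Pth1r (1.28) and the matrix protein Postn (1.15) rose and Phex fell (-3.19, with 2 of 4 at the floor). In cell lines 4 fell against osteoblasts and none rose: Dmp1, a matrix protein of osteocytes (-5.21), Ibsp (-4.57), Phex (-3.85) and Ifitm5 (-3.05), with 1 line at the floor for each of the first 3. Sp7 and Dlx5 in the same comparison differed by -0.50 and 0.12 and were not called. Against primary tumours 7 of 15 were lower in lines and none higher, led by Dmp1 (-4.34), Ibsp (-3.76), Smpd3 (-3.21) and Ifitm5 (-3.00). Against secondary tumours 5 were lower and none higher, led by Dmp1 (-4.12), Smpd3 (-3.57) and Alpl (-2.96). Between secondary and primary tumours limma called 0 of 15, and 0 had an unadjusted p below 0.05. Shares of all genes called higher and lower against osteoblasts were 6.58% and 11.9% in primary and 7.71% and 10.8% in secondary tumours. In lines they were 1.58% and 6.64% against osteoblasts, 4.72% and 7.03% against primary tumours, and 4.77% and 8.40% against secondary tumours. Line 176, the line with the highest level of all 4 factors, had a matrix list mean of 9.58 against 8.57 to 9.47 in the other lines, a BMP list mean of 8.54 against 7.85 to 8.22, and muscle markers at 4.43 against 7.10 to 9.03. Its mean over the other osteoblast regulators was the lowest of the lines, at 8.41 against 8.45 to 8.51. On its array 2 of the matrix genes were at the floor.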

How the data were processed

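Per the labels' protocols, RNA was copied into biotin-labelled cRNA from its poly(A) end and hybridised to 1-colour arrays. The deposited values are intensity on a linear scale, 1 per probe set, and how the authors summarised and scaled them is not given in the sources used here. Values were used as deposited, floored at the 20th percentile (12.5) and taken to log2. Kept were probe sets for which at least 3 arrays exceeded the median of all values (52.6), and the kept probe set with the highest mean stood for its gene, giving 12887 genes. All 26 arrays entered 1 model in limma 3.58.1 (R 4.3.3), with Benjamini-Hochberg adjustment over all genes of a comparison. Errors are SD for groups and limma's SE for differences. Names, coordinates and promoters come from RefSeq, GRCm38.p6.

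The members and gene lists were chosen with earlier results of these data known. Named from the lists were up to 4 called genes with the largest difference per comparison, and for each member the 5 most alike genes over all arrays and 3 over primary tumours; further genes given for completeness of a small count were chosen after their values were seen. Same-numbered arrays were checked by the correlation of deviations from group means: 0.449, 0.302, 0.224 and 0.642 for secondary tumours 29, 64, 66 and 94, above the 0.1 required of a pairing, and 0.035, 0.081 and 0.039 for lines 176, 179 and 182, below it. Scripts were tested on simulated data. Precision is limited by the number of arrays.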

Additional observations from a re-analysis of the deposited data

Results flagged for a closer look

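The Msx2 probe set dropped by the filter, 1438351_at, gave both values noted here. In cell line 182 it measured 4.08 on the log2 scale while the other 3 lines were at the floor of 3.64, so that it stands apart from tied values. Before flooring the other lines measured 2.56, 3.23 and 3.01, and the distance comes from the floor. By the other Msx2 probe set line 182 was at 4.61, within the range of the lines. In primary tumours the dropped probe set reached 5.80, in tumour 119, while all 3 osteoblast cultures lay at the floor. Tumour 119 was also among the highest by 1449559_at, at 8.59.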

How the results depend on the processing

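Differences are log2, and p-values are limma's, adjusted. Sp7, Dlx5 and Twist1 between cell lines and primary tumours, and Sp7 and Dlx5 in the other comparisons that called them, kept their direction under every alternative. Quantile normalization called Twist1 in secondary tumours against osteoblasts (1.51), and scaling to the 75th percentile called Msx2 in primary tumours (2.14). A floor at the 40th percentile called Msx2 in lines against secondary tumours (-2.29), and so did a filter at the 75th percentile, every kept probe set and a fit of only the groups compared (each -2.54). That floor also brought the adjusted p of the Sp7 and Dlx5 correlation (0.70) to 0.0276 and of Sp7 and Msx2 (0.50) to 0.0182. The rank correlation of Sp7 and Msx2 passed under each scaling and floor tried (0.75 to 0.80). With no filter the Sp7 calls in primary (1.67) and secondary tumours (2.06) were lost. Testing every kept probe set called 6053 in primary, 2008 in lines and 6241 in secondary tumours against osteoblasts, against 2378, 1059 and 2381 genes, 4180 in lines against primary tumours (1514 genes), 4806 in lines against secondary tumours (1697) and 2 in secondary against primary tumours (1 gene). A fit of only the groups compared called Twist1 in secondary tumours (1.25) and 2 genes between secondary and primary tumours. Array weights called Msx2 in primary tumours (2.30), in lines against primary (-1.85) and secondary tumours (-2.77), and Twist1 in secondary tumours (1.25) and in lines against them (-1.42), and turned Twist1 in lines against osteoblasts to -0.17. With the control set as a covariate, lines against primary tumours lost Dlx5 (-0.87) and Twist1 (-1.03), lines against secondary tumours lost Sp7 (-2.06) and Dlx5 (-1.09), and 741 genes were called in the latter. Tumours of set B alone called Msx2 in primary tumours (2.74) and in lines against them (-2.10), with 9 genes between secondary and primary tumours. Those of set C alone lost Sp7 (1.44), Dlx5 (0.99) and Twist1 (1.17) in primary tumours and Dlx5 (-0.87) and Twist1 (-1.03) in lines against them, called 251 genes between secondary and primary tumours, and turned Twist1 there to 0.08. With the Gapdh 5′ to 3′ ratio as a covariate Sp7 in primary tumours (1.55) and Dlx5 (-0.82) and Twist1 (-0.89) in lines against them lost their calls, and 26 genes were called between secondary and primary tumours. The random replicate block (tumour number, consensus correlation 0.352) ended the calls of Sp7 (1.94) and Msx2 (2.70) in secondary tumours against osteoblasts and changed no other call of a member. Restricted to matched arrays, 3 lines and 4 secondary tumours, the fixed replicate block called 648 genes between lines and primary tumours and none of Sp7 (-1.75), Dlx5 (-1.11) and Twist1 (-1.64). The same arrays without the block, an alternative added after seeing the data, gave the same 3 differences, also not called. Between secondary and primary tumours the matched fits gave -0.19 for Msx2, and called 3 genes with the block and 2 without. Without primary tumour 330 and line 176, also added later, Msx2 was called in primary tumours (2.19) and in lines against secondary tumours (-2.92), Twist1 in the latter (-1.63) and Sp7 in lines against osteoblasts (-1.33), with 2 genes between secondary and primary tumours. Dlx5 and Twist1 in lines against osteoblasts then turned to -0.08 and -0.38, as they did without line 176 alone, Sp7 to 0.11 without line 213, and Twist1 in secondary against primary tumours to 0.01 without secondary tumour 29. Leaving out each array in turn gave, in primary tumours against osteoblasts, 1.59 to 1.91 for Sp7, 1.89 to 2.27 for Msx2 and 1.38 to 1.62 for Twist1. In secondary tumours against osteoblasts the ranges were 1.90 to 2.18 for Sp7, 2.83 to 3.55 for Msx2 and 1.10 to 1.46 for Twist1. In lines they were -1.33 to 0.11 for Sp7, -0.08 to 0.29 for Dlx5 and -0.38 to 0.42 for Twist1 against osteoblasts, -1.30 to -0.93 for Dlx5 and -1.83 to -1.03 for Twist1 against primary tumours, and -2.92 to -2.19 for Msx2 and -1.63 to -0.83 for Twist1 against secondary tumours. Secondary against primary tumours gave -0.36 to 0.01 for Twist1. The cause of these changes was not tested. All calls of Msx2 carry the limit of its filter given above. With 3 cultures and 4 arrays in each small group, the number of arrays sets the precision.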
